A study of Mus musculus with 18 samples.

Results

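The expression of 8 genes linked to signalling by bone morphogenetic proteins (BMPs) was followed across serum exchange in MEFs (mouse embryonic fibroblasts). They were the 4 inhibitor of DNA binding genes Id1, Id2, Id3 and Id4, the inhibitory SMAD genes Smad6 and Smad7, the ligand gene Bmp4 and the pseudoreceptor gene Bambi. Each was taken by its gene name from the raw-count table, which gave 8 of 55487 genes, and all 8 passed the filter on low counts among 15381 genes that did. The genes were chosen with expression values of these 6 groups already known. Their levels, fold changes, intervals and DEG calls are therefore a description of these libraries and no independent test of the 8 genes, and no p is given for a single one of them. Wild-type (WT) MEFs were kept in Scm, the complete medium made with a fetal bovine serum called S-FBS, or in Rcm, made with R-FBS. Under S-FBS cells are sensitive to chemically induced ferroptosis, and under R-FBS they resist it. The labels of these libraries name no inducer of ferroptosis. The remaining groups left Rcm for Scm (R-Scm) or Scm for Rcm (S-Rcm) and were harvested 12 h or 24 h after the exchange. Each of the 6 groups had 3 libraries. All came from 1 MEF line, and nothing in the labels says whether libraries of a group were separate cultures, so the spread between them may be technical. No group received fresh medium of its own kind, so an effect of the medium change cannot be told apart from an effect of the new serum.

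BMPs are secreted ligands of the TGF-beta superfamily, and serum carries BMP activity of its own. They bind type I and type II receptor kinases, which phosphorylate SMAD1, SMAD5 and SMAD9. These enter the nucleus with SMAD4 and induce, among the most direct targets in many cell types, the Id genes and the feedback genes Smad6 and Smad7. ID proteins lack a DNA-binding region and hold E proteins and other basic helix-loop-helix factors off DNA. SMAD6 mainly restrains BMP receptors and their SMADs, SMAD7 restrains both BMP and TGF-beta receptors, and BAMBI is a receptor-like protein without a kinase.

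Total counts per library ran from 14534906 to 20313715, and TMM factors from 0.963 to 1.03. Levels are CPM, TMM-normalized counts scaled to a common library size, and differences are log2 fold changes from edgeR's quasi-likelihood model of the 18 libraries with their SE. A gene was called a DEG when its log2 fold change exceeded 0.58 in size and its adjusted p lay under 0.05 over the 15381 genes tested. The fibroblast markers, 8 of 8 tested, summed to 7913 to 11211 CPM per library. The summed markers of endothelial cells reached at most 3.25 CPM, those of epithelial cells 0.552 CPM and those of leukocytes 0.448 CPM. In these bulk libraries, fewer cells of one state and less RNA per cell cannot be told apart. Library R-Scm 24 h replicate 1 lay closer to Rcm than the other 2 of its group for Id1, Id3, Id4 and Smad7, and results of that group are also given without it.

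Promoter sequences are shown because BMP SMADs bind GC-rich elements such as GGCGCC, which the window of Id4 holds. The windows are the 250 bases before the start in a RefSeq table of GRCm38.p6, written from 5′ to 3′ on the gene's strand, and none of the bases shown lies in an annotated UTR. Capitals mark GGCGCC, a palindrome that reads the same on both strands. Smad6 and Bmp4 are shown as windows without the element.
Id4, chr13:48260866-48261115, plus strand: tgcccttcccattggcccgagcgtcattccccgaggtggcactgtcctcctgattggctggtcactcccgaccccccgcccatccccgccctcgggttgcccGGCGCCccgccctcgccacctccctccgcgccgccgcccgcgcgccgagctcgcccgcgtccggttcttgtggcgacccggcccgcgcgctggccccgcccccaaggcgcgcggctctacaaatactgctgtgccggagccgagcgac
Smad6, chr9:64022060-64022309, minus strand: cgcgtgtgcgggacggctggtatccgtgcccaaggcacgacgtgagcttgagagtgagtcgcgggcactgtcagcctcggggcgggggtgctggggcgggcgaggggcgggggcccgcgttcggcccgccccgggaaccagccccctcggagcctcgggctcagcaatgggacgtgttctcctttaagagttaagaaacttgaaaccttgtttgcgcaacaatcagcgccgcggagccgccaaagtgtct
Bmp4, chr14:46390670-46390919, minus strand: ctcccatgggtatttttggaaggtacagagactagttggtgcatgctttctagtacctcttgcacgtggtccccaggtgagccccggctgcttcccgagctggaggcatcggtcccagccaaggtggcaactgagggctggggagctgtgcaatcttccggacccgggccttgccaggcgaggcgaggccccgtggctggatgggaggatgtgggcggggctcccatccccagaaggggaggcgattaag

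The element lay 148 bases before the RefSeq start of Id4. The window ends at base 48261115, while the GENCODE gene starts further on, at 48261228, so the element lies farther from that start. GGCGCC was in 9.59% of the 32851 windows of the RefSeq table, whatever their GC content. The window of Id4 was 75.6% GC, beside 66.8% for Smad6 and 63.2% for Bmp4. CAGAC, the core of the SMAD3 and SMAD4 element, or its reverse complement GTCTG occurred in 42.2% of windows and in none of these 3. Of the window of Id2, 161 of 250 bases lay in an annotated UTR, and of that of Id3 all 250. These 2 windows thus lay inside the annotated genes and were not read as promoters, although that of Id2 also held GGCGCC, 231 bases before its start. No window was matched for Id1, Smad7 or Bambi.

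Id1, on chromosome 2 (152736251 to 152737410, plus strand, GRCm38), had, with Id3, the highest level per length of the 8 genes in MEFs kept in Scm. Id1 stood at 222 ± 11.9 CPM per kb of exon (SD, n = 3), beside 211 ± 13.9 for Id3, 36.6 ± 2.13 for Id2 and 5.52 ± 0.242 for Id4. On the same scale Smad6 stood at 10.8 ± 0.200, Bmp4 at 10.7 ± 0.920, Smad7 at 9.74 ± 1.08 and Bambi at 2.83 ± 0.0328. Id1 and Id3 differed by less than their spread.

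All 4 Id genes were lower in MEFs kept in Rcm than in MEFs kept in Scm, and no Rcm library reached a Scm library for any of them. Id1 was at 248, 274 and 252 CPM in Scm and at 117, 132 and 170.2 CPM in Rcm. Its mean was 1.84-fold lower in Rcm (log2 fold change -0.88 ± 0.23). Id3, on chromosome 4 (136143497 to 136145755, plus strand), was at 365, 407 and 363 CPM in Scm and at 174, 186 and 242 CPM in Rcm. The difference was 1.89-fold (-0.92 ± 0.17), and for both genes replicate 3 of Rcm was the library nearest to Scm.

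Id2, on chromosome 12 (25093799 to 25097140, minus strand), was at 83.3, 91.2 and 93.1 CPM in Scm and at 49.7, 52.1 and 45.8 CPM in Rcm, which is 1.81-fold lower (-0.86 ± 0.13). Id4, on chromosome 13 (48261228 to 48266026, plus strand), was at 20.2, 22.0 and 21.4 CPM in Scm and at 9.85, 10.8 and 7.77 CPM in Rcm. Id4 differed most among the 8 genes, 2.24-fold lower (-1.16 ± 0.14). All 4 were called DEGs. The call of Id1 was lost without the filter on low counts and in 5 of the 6 fits that left out 1 library, and was kept without Rcm replicate 3. Id2 and Id4 were called in 6 of 6 and Id3 in 4 of 6, so that without Rcm replicate 1 or 2 the DEGs were 2 of the 8.

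**Figure D1:**
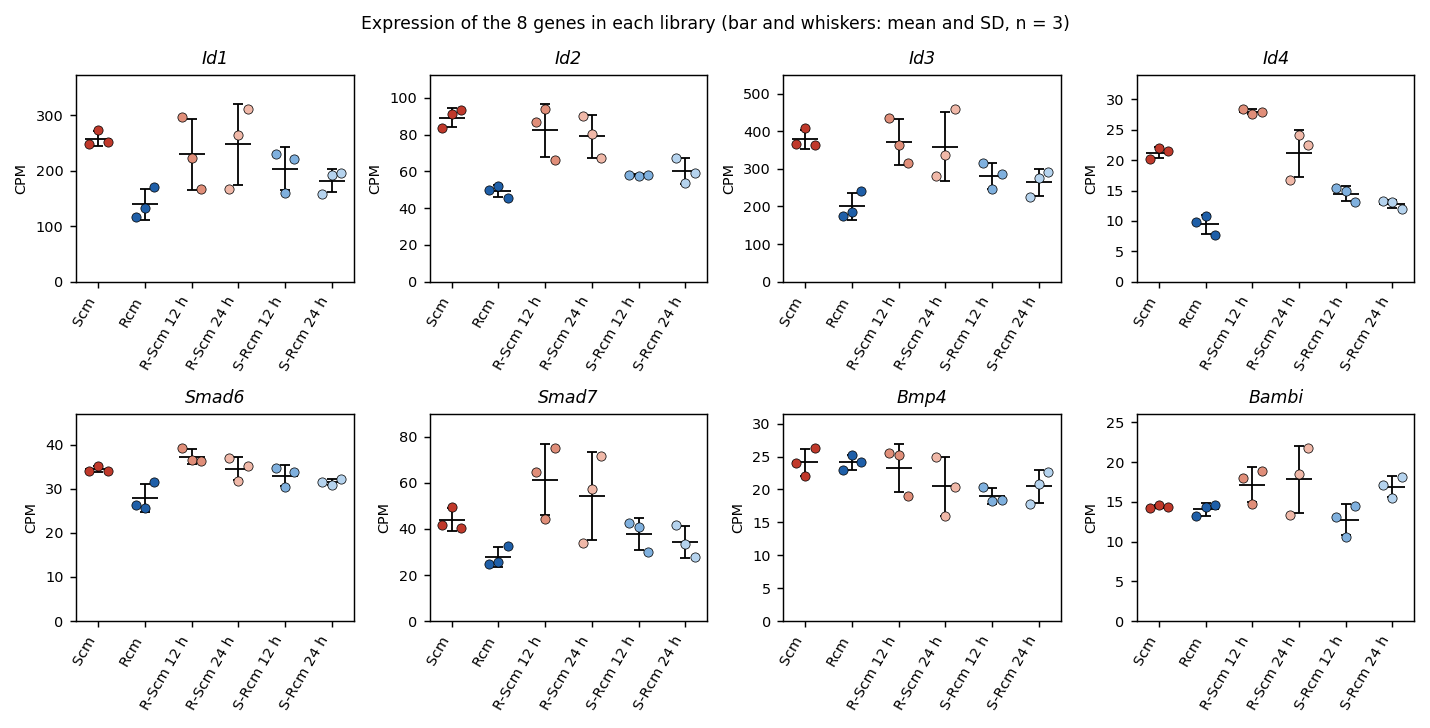
Expression of the 8 genes in each of the 18 libraries, in CPM on an axis from 0, with the 6 groups on the x axis and the mean and SD (n = 3) as a bar with whiskers. The Rcm libraries of Id1, Id2, Id3 and Id4 sit below all Scm libraries, while those of Bmp4 and Bambi overlap with Scm.

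The feedback genes were also lower in Rcm, by less. Smad6, on chromosome 9 (63953076 to 64022059, minus strand), was at 34.1, 35.2 and 34.2 CPM in Scm and at 26.4, 25.8 and 31.5 CPM in Rcm. That is 1.23-fold lower (-0.30 ± 0.096), under the fold threshold. Smad7, on chromosome 18 (75367529 to 75395935, plus strand), was at 41.8, 49.6 and 40.6 CPM in Scm and at 24.9, 25.8 and 32.6 CPM in Rcm (-0.66 ± 0.25). The libraries of neither gene overlapped between the groups, and neither was a DEG.

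The ligand and the pseudoreceptor did not separate the steady cultures. Bmp4, on chromosome 14 (46383520 to 46390669, minus strand), was at 24.1, 22.1 and 26.2 CPM in Scm and at 22.9, 25.3 and 24.2 CPM in Rcm. The 95% interval of its log2 fold change ran from -0.32 to 0.32. Bambi, on chromosome 18 (3507923 to 3516404, plus strand), was at 14.2, 14.6 and 14.4 CPM in Scm and at 13.2, 14.3 and 14.6 CPM in Rcm, with an interval from -0.38 to 0.31. For both genes the libraries overlapped, and differences larger than these limits were outside the intervals. Of the 8 genes, 4 were DEGs, all lower in Rcm, beside 2.3% of all genes called in either direction and 0.631% called lower. The libraries did not overlap for 6 of the 8, beside 23.9% of all genes. Nothing is read from these counts, since the genes were chosen on these groups.

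After the change from Rcm to Scm, the means of all 4 Id genes lay above Rcm at 12 h and 24 h. Id2 was at 86.8, 93.8 and 66.0 CPM at 12 h, 1.67-fold above Rcm (0.74 ± 0.13), and at 90.1, 80.1 and 67.0 CPM at 24 h (0.69 ± 0.13). Id3 was at 435, 362 and 315 CPM at 12 h (0.89 ± 0.17) and at 279.8, 337 and 459 CPM at 24 h (0.84 ± 0.17). All libraries of both genes lay above Rcm at both times. Id1 was at 297, 224 and 168 CPM at 12 h (0.72 ± 0.23) and at 167, 264 and 311 CPM at 24 h (0.82 ± 0.23). At each time 1 Id1 library lay just under the highest Rcm library, and Id1 was not a DEG in edgeR, while DESeq2 called it at both times.

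Id4 went furthest. It was at 28.4, 27.6 and 28.0 CPM 12 h after the change to Scm, 2.95-fold above Rcm (1.56 ± 0.14) and also above every library kept in Scm (0.40 ± 0.14 against Scm, not a DEG). At 24 h it was at 16.8, 24.1 and 22.5 CPM, 2.23-fold above Rcm (1.16 ± 0.14). These libraries lay below those of 12 h and overlapped with steady Scm, from which they differed by -0.01 ± 0.14 on the log2 scale.

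Smad7 varied widely between libraries after this exchange, with a coefficient of variation of 25.3% at 12 h, beside 28.2% for Id1, and of 35.1% at 24 h, the highest of the 8. It was at 64.7, 44.5 and 75.0 CPM at 12 h, 2.21-fold above Rcm (1.14 ± 0.25), and at 34.0, 57.3 and 71.9 CPM at 24 h (0.97 ± 0.25). Every library of both times lay above Rcm, and Smad7 was a DEG at 12 h in edgeR and at both times in DESeq2. The edgeR call was lost without Rcm replicate 1, Rcm replicate 2 or R-Scm 12 h replicate 3. Smad6 was at 39.2, 36.5 and 36.3 CPM at 12 h (0.42 ± 0.095) and at 37.1, 31.7 and 35.1 CPM at 24 h (0.31 ± 0.096). It lay above Rcm in all libraries and stayed under the fold threshold.

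Bmp4 was at 25.5, 25.2 and 19.0 CPM at 12 h and at 25.0, 16.0 and 20.4 CPM at 24 h, overlapping with Rcm at both times. Bambi was at 17.9, 14.7 and 18.9 CPM at 12 h, above Rcm in all libraries (0.29 ± 0.16), and at 13.4, 18.4 and 21.7 CPM at 24 h, where it overlapped. Neither was a DEG. At 12 h the DEGs were Id2, Id3, Id4 and Smad7, 4 of 8, all higher, beside 2.74% of all genes called and 1.51% called higher, and 6 of 8 had no overlap with Rcm beside 23.4%. At 24 h they were Id2, Id3 and Id4, 3 of 8, all higher, beside 0.377% called and 0.182% called higher, and 5 of 8 had no overlap beside 11.2%. Without R-Scm 24 h replicate 1, the log2 fold changes at 24 h were 1.04 for Id1, 0.58 for Id2, 0.99 for Id3, 1.30 for Id4 and 1.22 for Smad7, and these 5 were DEGs. Without Rcm replicate 1, Rcm replicate 2 or R-Scm 24 h replicate 2, only Id4 remained a DEG at 24 h.

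**Figure D2:**
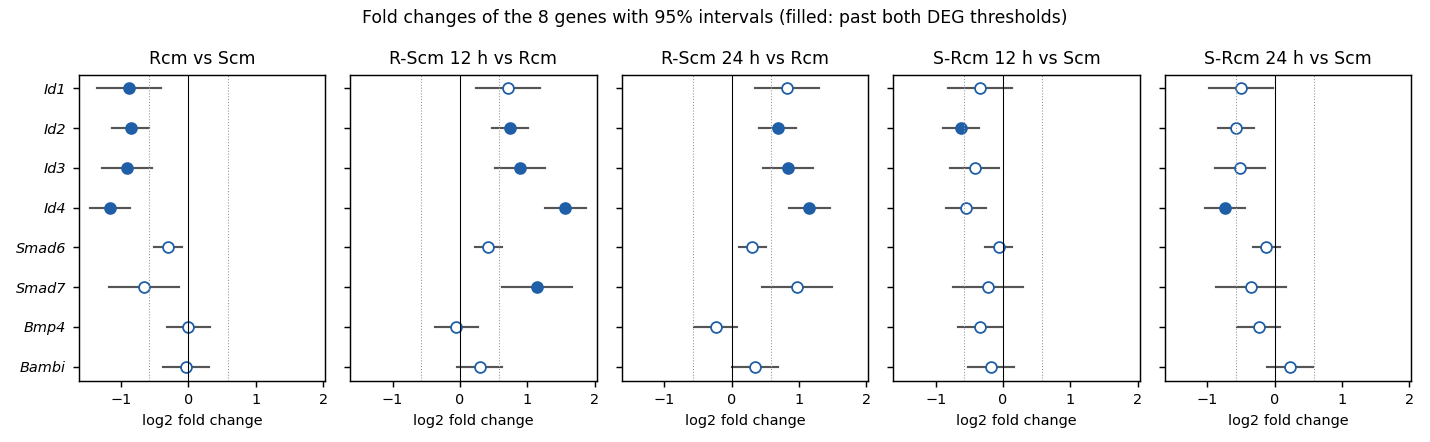
Log2 fold changes of the 8 genes in 5 comparisons with 95% intervals, where filled points are past both DEG thresholds and dotted lines mark the fold threshold. The Id genes lie left of 0 in Rcm against Scm and right of 0 in both R-Scm groups, with Id4 farthest out (-1.16, 1.56 and 1.16).

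The opposite change, from Scm to Rcm, was followed by mean Id levels between those of the steady cultures. Id2 was at 58.3, 57.3 and 58.2 CPM 12 h after the change, 1.54-fold below Scm (-0.62 ± 0.13), and at 67.5, 53.6 and 58.8 CPM at 24 h (-0.57 ± 0.13). Id4 was at 15.4, 15.0 and 13.1 CPM at 12 h (-0.55 ± 0.14) and at 13.3, 13.1 and 12.0 CPM at 24 h, 1.66-fold below Scm (-0.73 ± 0.14). All these libraries of Id2 and Id4 lay below Scm and above Rcm. Id1 was at 231, 159.9 and 221 CPM at 12 h (-0.34 ± 0.22) and at 158, 192 and 195 CPM at 24 h (-0.50 ± 0.23). Id3 was at 315, 246 and 286 CPM at 12 h (-0.42 ± 0.17) and at 224, 277 and 293 CPM at 24 h (-0.52 ± 0.17). Both lay below Scm in all libraries, and neither was a DEG.

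Smad7 overlapped with Scm at both times, at 42.6, 40.8 and 29.9 CPM and then at 41.8, 33.4 and 27.8 CPM. Smad6 was at 34.8, 30.4 and 33.8 CPM at 12 h and at 31.5, 31.0 and 32.3 CPM at 24 h, all 3 below Scm only at the later time (-0.13 ± 0.095). Bmp4 was at 20.4, 18.3 and 18.4 CPM at 12 h, below Scm in all libraries (-0.34 ± 0.15), and at 17.8, 20.9 and 22.7 CPM at 24 h. Bambi was at 13.1, 10.6 and 14.5 CPM at 12 h and at 17.1, 15.5 and 18.1 CPM at 24 h, where it lay above Scm (0.23 ± 0.16). None of these 4 genes was a DEG. The DEG among the 8 was Id2 at 12 h, beside 0.858% of all genes called and 0.26% called lower, and Id4 at 24 h, beside 0.338% called and 0.117% called lower. Leaving out any 1 library removed each of these calls (edgeR, 0 of 8 in all 6 fits at each time, with 2 to 4 of the 8 at an unadjusted p under 0.05). The libraries of 5 of 8 genes at 12 h and 6 of 8 at 24 h had no overlap with Scm, beside 26.4% and 19.5% of all genes.

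The share of the steady log2 gap between Rcm and Scm that each exchange had covered put these levels on 1 scale. It uses the same Rcm and Scm libraries for both directions and is given without a test. For Id1 and Id2 the range when any 1 of the 18 libraries was left out is also given. From Rcm to Scm, Id1 had covered 77.2% of the gap at 12 h (54.4% to 100.2%) and 88.4% at 24 h (67.4% to 117%). Id3 had covered 95.6% and 88.4%, Id2 84.6% and 78.7%, and Id4 134% and 98.0%. From Scm to Rcm, Id1 had covered 39.6% at 12 h (21.2% to 50.6%) and 56.4% at 24 h (45.6% to 65.1%). Id3 had covered 46.2% and 56.3%, Id2 72.3% and 67.2%, and Id4 47.3% and 62.5%. The share was larger toward Scm for each Id gene at each time. For Id2 the ranges of both directions overlapped. At 12 h they were 72.6% to 102.1% toward Scm and 68.9% to 76.9% toward Rcm. At 24 h they were 67.1% to 92.0% and 58.1% to 77.5%. For Id1, Id3 and Id4 the ranges of both directions did not overlap at either time. The ranges share most libraries and do not cover the sampling error, and the difference between the directions was not tested.

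Opposite exchanges at 1 time share the medium change and share no library with the steady comparison. At 12 h, S-Rcm minus R-Scm was -0.95 ± 0.14 for Id4, the 1 DEG of the 8, beside 2.63% of all genes called and 1.6% called lower. It was -0.51 ± 0.13 for Id2, -0.39 ± 0.17 for Id3 and -0.70 ± 0.24 for Smad7, with no call. Id1 differed by -0.17 ± 0.22 and overlapped. The libraries of 6 of the 8 did not overlap, all lower in S-Rcm, beside 27.8% of all genes. At 24 h the differences were -0.72 ± 0.14 for Id4, which did not overlap, and -0.40 ± 0.13 for Id2, -0.44 ± 0.17 for Id3 and -0.44 ± 0.23 for Id1, which did. None of the 8 was called at 24 h (edgeR), where 4 had an unadjusted p under 0.05, DESeq2 called 1 (Id4) and 0.065% of all genes were called. Id4 was the 1 gene of the 8 without overlap, beside 10.4% of all genes.

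In the order of mean levels, Id1, Id2 and Id3 all ran from Scm at the top to Rcm at the bottom, with both R-Scm groups above both S-Rcm groups. Each neighbour in that order overlapped with the next, except that the lowest S-Rcm group of Id2 lay clear of Rcm. Id4 had R-Scm 12 h at the top, clear of Scm, Rcm at the bottom, clear of S-Rcm 24 h, and R-Scm 24 h clear of S-Rcm 12 h. Smad6 and Smad7 shared 1 order, from R-Scm 12 h through R-Scm 24 h, Scm, S-Rcm 12 h and S-Rcm 24 h to Rcm, in which all neighbours overlapped. Bmp4 was highest in Scm and lowest in S-Rcm 12 h, and Bambi highest in R-Scm 24 h and lowest in S-Rcm 12 h.

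Id1 and Id3 also varied together within groups. Over the 18 libraries Pearson's r of their log2 CPM was 0.947, and of the deviations from the group means 0.935. Points share a library and its depth, and no test is given. The within-group r was -0.162 for Id1 with Id2, 0.171 for Id1 with Id4 and 0.0322 for Id3 with Id4. The 6 group means of Id1 had an r of 0.934 with Id2 and 0.880 with Id4. Id3 was the gene of the 15381 whose pattern was most like Id1, followed by Eva1c (r = 0.933), Nfkbib (0.910), Ran (0.903) and Sertad1 (0.902). For Smad6 the closest were Prrx2 (0.937), Atoh8 (0.90), Ak1 (0.887), Ass1 (0.854) and Kirrel3 (0.837), with Id3 at rank 7 (0.831).

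**Figure D3:**
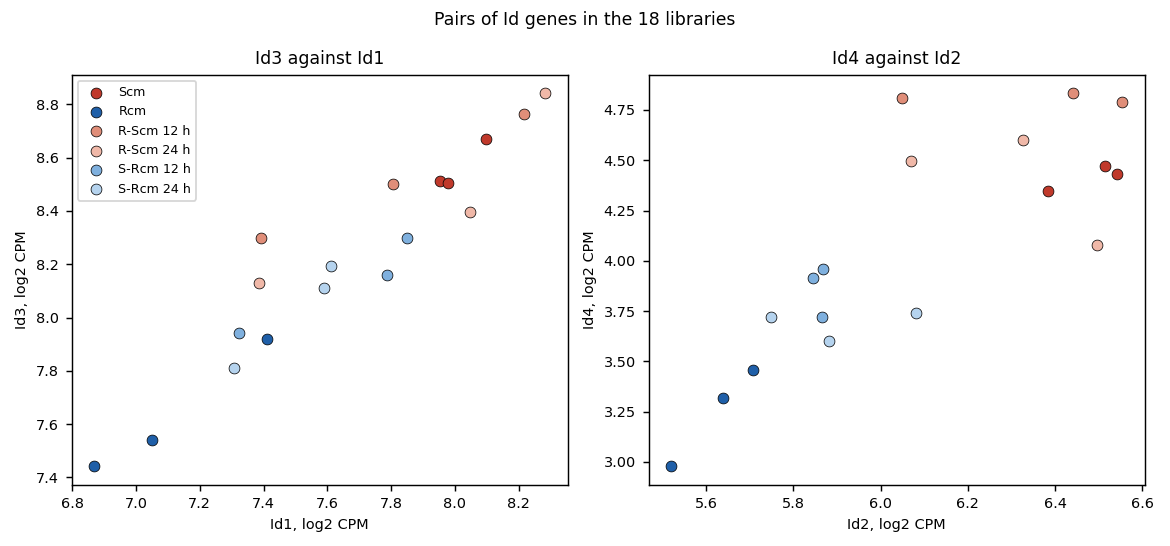
Log2 CPM of Id3 against Id1 and of Id4 against Id2, 1 point per library, coloured by group. Id1 and Id3 lie near 1 line within and between groups (r = 0.947), whereas Id4 at R-Scm 12 h stays near its highest level while Id2 runs from 66.0 to 93.8 CPM.

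The other genes of the pathway were taken from 8 lists of ligands, receptors, SMADs, antagonists and targets with 81 genes, of which 57 were tested. Between Rcm and Scm 7 of the 57 were DEGs (12.3%, beside 2.3% of all genes), 2 higher and 5 lower in Rcm. The median log2 fold change was -0.06 over the 57 and 0.01 over all genes. There were 12 DEGs in R-Scm 12 h (21.1%, beside 2.74% of all genes), 9 higher and 3 lower than Rcm. In R-Scm 24 h there were 3 (5.26%, beside 0.377% of all genes), all higher. There were 2 in each S-Rcm group, 1 higher and 1 lower than Scm. That is 3.51%, beside 0.858% of all genes at 12 h and 0.338% at 24 h. Adjusted p values are from edgeR's quasi-likelihood test with the Benjamini-Hochberg method over the 15381 genes. The lists and thresholds were chosen with earlier results of these data known. Counts and adjusted p values of pathway genes, here and below, are thus a description and no independent test. The R-Scm comparisons share the Rcm libraries with the steady comparison, and the S-Rcm comparisons share the Scm libraries, so their directions are not independent.

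Hey1, Atoh8 and Dlx2 fell in Rcm among BMP target genes other than the 8. Of 10 listed, 5 were tested, and 3 were DEGs, all lower in Rcm, with a median of -0.79 over the 5, while the 5 that were not tested had at most 5 counts in any library. Hey1, a Notch and BMP target that encodes a transcriptional repressor, was at 8.29, 9.98 and 8.45 CPM in Scm and at 1.81, 2.20 and 2.24 CPM in Rcm. It fell 4.26-fold (-2.09 ± 0.23, adjusted p = 0.000117). Atoh8, a basic helix-loop-helix factor induced by BMP signalling, was at 31.3, 32.2 and 29.4 CPM in Scm and at 12.3, 12.0 and 16.0 CPM in Rcm. It fell 2.30-fold (-1.20 ± 0.15, adjusted p = 0.000213), with no overlap between the libraries for either gene. The homeobox gene Dlx2 fell 1.73-fold (-0.79 ± 0.16, adjusted p = 0.00984). The remaining 2 tested, Msx1 (-0.43 ± 0.15) and Runx2 (-0.24 ± 0.12), did not pass, at adjusted p = 0.145 and 0.359. Hey1 and Atoh8 were called in every fit that left out 1 library, and Dlx2 in 3 of 6.

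After the change to Scm, 3 of these 5 were DEGs at 12 h and 2 at 24 h, all higher than Rcm. The log2 fold change was positive for 4 of the 5 at 12 h and for all 5 at 24 h. Atoh8 was at 34.9, 31.0 and 28.0 CPM at 12 h, 2.33-fold above Rcm (adjusted p = 0.00017), and at 27.7, 23.4 and 31.6 CPM at 24 h (1.04 ± 0.15, adjusted p = 0.00612). Dlx2 rose by 0.80 ± 0.16 and 0.76 ± 0.16 (adjusted p = 0.00658 and 0.0451), and its call at 24 h held in 2 of 6 fits without 1 library. Hey1 rose to 4.32, 5.25 and 3.25 CPM at 12 h (1.04 ± 0.23, adjusted p = 0.0159), still under all libraries kept in Scm. This call held in 4 of 6 fits without 1 library. At 24 h Hey1 lay above Rcm in all libraries (0.80 ± 0.23) and did not pass (adjusted p = 0.165). After the change to Rcm, all 5 had negative log2 fold changes at both times, with medians of -0.52 and -0.39, and Hey1 alone was a DEG. It was at 4.72 ± 0.609 CPM at 12 h (-0.91 ± 0.22, adjusted p = 0.0471) and 3.61 ± 0.821 CPM at 24 h (-1.30 ± 0.22, adjusted p = 0.0163). Hey1 was a DEG at 12 h in none of the 6 fits without 1 library and at 24 h in 1 of 6.

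Among BMP SMADs, 4 of 4 tested, Smad9 was the DEG. It encodes a receptor-regulated SMAD and was low, at 2.75 ± 0.127 CPM in Scm with 1.25 ± 0.155 CPM in Rcm (-1.13 ± 0.27, adjusted p = 0.0343). The call held in 1 of 6 fits without 1 library. It rose to 3.46 ± 1.08 CPM in R-Scm 12 h (1.46 ± 0.27, adjusted p = 0.00466). Smad1, Smad5 and Smad4, which carry or share the BMP signal, were not DEGs in any of the 5 comparisons (edgeR). Of 11 receptors and co-receptors, 8 were tested and none was a DEG between Rcm and Scm (edgeR, and 0 by DESeq2), with 1 at an unadjusted p under 0.05. Acvr2b, a type II receptor gene, fell in R-Scm 12 h, at 9, 10 and 1 counts against 18, 14 and 39 in Rcm (-1.88 ± 0.47, adjusted p = 0.0321), a call that held in 3 of 6 fits without 1 library. Of 7 intracellular regulators none was a DEG in the 5 comparisons (edgeR, and 0 by DESeq2), with 0 to 2 at an unadjusted p under 0.05.

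The ligand list held 13 genes, of which 4 were tested. Bmp3, which encodes a BMP that can oppose the others, was higher in Rcm, at 15.3, 13.8 and 8.58 CPM against 0.856, 1.46 and 1.17 CPM in Scm. The rise was 10.9-fold (3.44 ± 0.70, adjusted p = 0.0134), and the call held in 2 of 6 fits without 1 library. In R-Scm 24 h Bmp3 was at 11.9 CPM in replicate 1 and at 1.14 and 1.33 CPM in the others. Bmp2, Bmp6 and Gdf5 did not pass in Rcm against Scm (adjusted p = 0.965, 0.211 and 0.161). The other 9 ligands had at most 9 counts in any library.

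Of 15 antagonists and modulators outside the cell, 8 were tested. Nbl1, a secreted BMP antagonist, fell in Rcm from 30.7 ± 3.07 to 18.4 ± 2.80 CPM (-0.74 ± 0.15, adjusted p = 0.0111). Its call held in 2 of 6 fits without 1 library. Fst, which binds activins and BMPs, rose in R-Scm 12 h from 53.8 ± 2.46 to 148 ± 56.2 CPM (1.46 ± 0.23, adjusted p = 0.00222). In Rcm against Scm Fst was lower without overlap (-0.85 ± 0.23, adjusted p = 0.0653), and DESeq2 called it. Grem1 was at 1384 ± 112 CPM in Scm and at 1053 ± 192 CPM in Rcm (-0.40 ± 0.14, adjusted p = 0.154). In R-Scm 12 h Grem1 was 0.579 ± 0.14 above Rcm (adjusted p = 0.0233), under the fold threshold, and DESeq2 called it. None of these 8 antagonists and modulators was a DEG in R-Scm 24 h or either S-Rcm group (edgeR), with 3 or 4 at an unadjusted p under 0.05. DESeq2 called 1 there (Fst in S-Rcm 12 h).

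**Figure D4:**
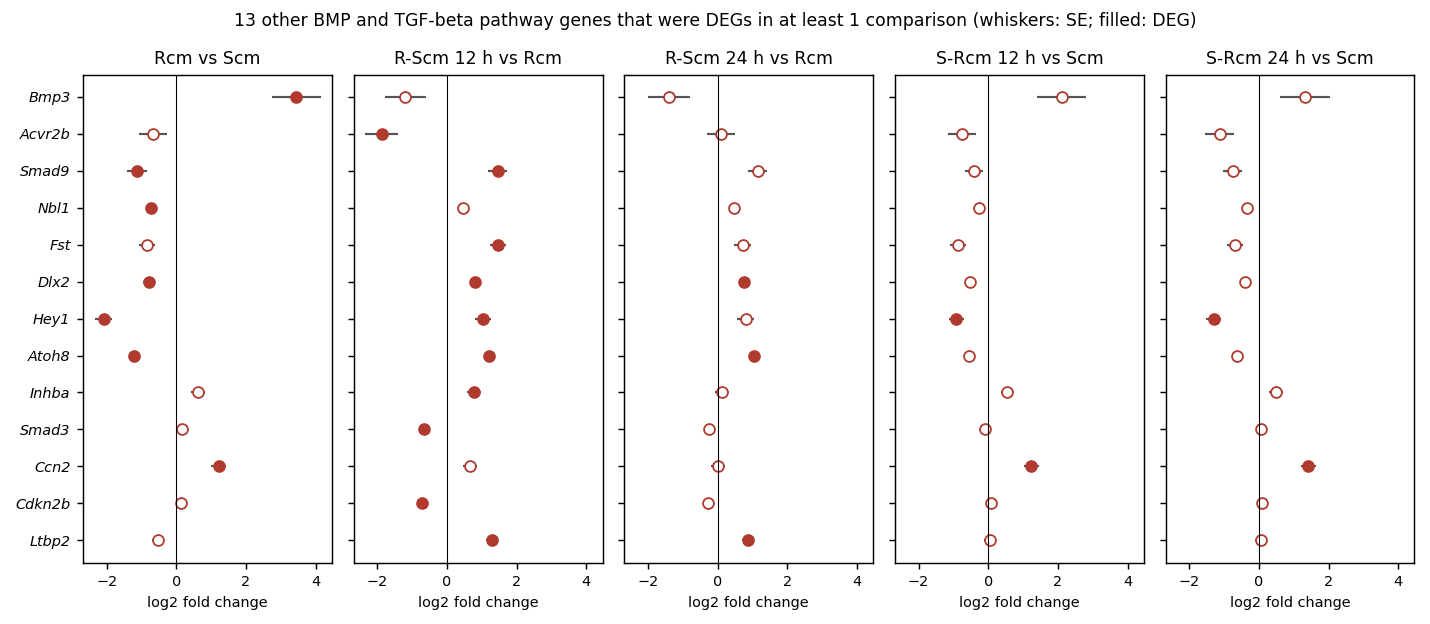
Log2 fold changes with SE of 13 other BMP and TGF-beta pathway genes that were DEGs in at least 1 of the 5 comparisons, with filled points for DEGs. Hey1, Atoh8 and Dlx2 lie left of 0 in Rcm against Scm and right of 0 in R-Scm 12 h. Ccn2 lies near 1.2 to 1.4 in Rcm and both S-Rcm groups, and near 0.65 in R-Scm 12 h against Rcm.

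The lists of the TGF-beta branch, which signals through SMAD2 and SMAD3, held 11 ligands, receptors and SMADs and 10 targets, all tested. In Rcm against Scm 1 target was a DEG and none of the 11 (edgeR, and 0 of the 11 by DESeq2, with 5 of the 11 at an unadjusted p under 0.05). Of the 10 targets 5 had positive and 5 negative log2 fold changes there, with a median of -0.05, and DESeq2 called 2. In R-Scm 12 h 2 of the 11 and 3 of the 10 targets were DEGs, and 8 of the 10 targets had positive log2 fold changes, with a median of 0.48. Ccn2, a matricellular gene that also answers to YAP, rose in Rcm from 162 ± 4.52 to 377 ± 9.30 CPM (1.21 ± 0.21, adjusted p = 0.00342). It also rose against Scm after the change to Rcm, by 1.24 ± 0.21 at 12 h and by 1.42 ± 0.21 at 24 h (adjusted p = 0.00757 and 0.00871). Each of these 2 calls held in 4 of 6 fits without 1 library. After the opposite change Ccn2 was at 591 ± 196 CPM in R-Scm 12 h and at 379 ± 9.94 CPM in R-Scm 24 h. The former was 0.65 ± 0.20 above Rcm (adjusted p = 0.0847, called by DESeq2). Ccn2 thus lay above Scm after either exchange. In R-Scm 12 h the inhibin subunit gene Inhba rose by 0.78 ± 0.20 (adjusted p = 0.033), called in 2 of 6 fits without 1 library. The matrix gene Ltbp2 rose by 1.29 ± 0.16 (adjusted p = 0.000214), with -0.53 ± 0.16 in Rcm against Scm, where it did not pass (adjusted p = 0.0924). Smad3 fell by 0.67 on the log2 scale (adjusted p = 0.000214) and the cell cycle inhibitor gene Cdkn2b fell by 0.71 (adjusted p = 0.00409). Ltbp2 was also a DEG in R-Scm 24 h (0.86 ± 0.16, adjusted p = 0.0232), a call that held in 3 of 6 fits without 1 library.

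Genes around the members gave these values. The E protein genes Tcf3, Tcf4 and Tcf12, whose products ID proteins bind, were not DEGs in the 5 comparisons (edgeR, and 0 by DESeq2), with 2 of 3 at an unadjusted p under 0.05 between Rcm and Scm. Of 8 proliferation genes none was a DEG between Rcm and Scm (edgeR, and 0 by DESeq2), with 2 at an unadjusted p under 0.05, and their sum ran from 2814 to 2977 CPM in Scm and from 3023 to 3302 CPM in Rcm. The fibroblast markers summed to 8682 to 8816 CPM in Scm and to 10422.0 to 10719.8 CPM in Rcm. The smooth muscle markers summed to 709 to 805 CPM in Scm and to 979.6 to 1119 CPM in Rcm. The osteoblast and chondrocyte markers summed to 20.9 to 27.2 and to 15.6 to 17.6 CPM. The part of these differences in the Id values was not tested. The smooth muscle sum was nearly all Acta2 (616 to 1994 CPM over the libraries), with at most 5 counts of Myh11 and 6 of Des. The other sum was nearly all Sox9 (7.73 to 27.0 CPM), with at most 6 counts of Bglap, Ibsp, Col2a1 or Acan. Neither sum thus marks a cell type. Id4 overlaps A330033J07Rik and Gm49291 on the opposite strand, and Bmp4 overlaps Gm15217 and Gm15222. The use of strand in counting is not given in the sources used here, so that reads from overlapping genes cannot be told apart. The 4 neighbours had at most 5, 9, 6 and 36 counts in a library. The Id2 pseudogene Gm6175, 91.6% identical over 380 bases, had 0 counts in every library.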

How the data were processed

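RNA of MEFs was extracted with the RNeasy mini kit, read from both ends on a NovaSeq instrument and aligned by the authors to GRCm38 with HISAT2. They deposited read counts per gene, whole numbers without normalization. The counting tool, strand use and treatment of reads with several alignments are not given in the sources used here. Columns were assigned to samples by the column names in the sample descriptions. Replicates carry the numbers of the titles, 1 to 3, while the columns of S-Rcm 24 h and both R-Scm groups are numbered 1, 3 and 4. filterByExpr kept 15381 of 55487 genes. A quasi-likelihood model with TMM factors and robust dispersion was fitted to the 18 libraries of 6 groups in edgeR 4.0.16 (R 4.3.3), with 12 residual degrees of freedom. Replicates differed by more than counting error (chi-square per degree of freedom at least 9.72). Log2 CPM used a prior count of 2. The 8 genes, the pathway lists and the thresholds were chosen with earlier results of these data known. Pathway genes were named when they were DEGs in any of 5 comparisons, up to 4 per list, apart from 2 that are counted and not reported here by name. For Id1 and Smad6 the 5 genes with the highest Pearson r were named. Msx1, Runx2, Smad1, Smad4, Smad5, Bmp2, Bmp6, Gdf5 and the E protein genes complete their lists and were named after their values were seen. Tgfb2 and Grem1 were also named after their values were seen. Locations and exon lengths were from the GENCODE annotation of GRCm38 and promoter windows from a RefSeq table of GRCm38.p6, which held 5 of the 8 genes. The fit was tested on simulated data. Alternatives were RLE factors, no filter, a replicate block, a fit of the 2 compared groups, DESeq2 1.42.0 and each library left out in turn.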

Additional observations from a re-analysis of the deposited data

Results flagged for a closer look

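The serum difference 12 h after exchange (S-Rcm minus R-Scm) was set against the steady difference (Rcm minus Scm) by a contrast in edgeR's quasi-likelihood model, adjusted over the 15381 genes. The contrast subtracts the steady difference from that after exchange and shares no library between its sides. It was tested for the pathway genes and not for the 8 genes themselves. At 12 h it was 2.23 for Hey1 (adjusted p = 0.000495) and 2.49 for Acvr2b (adjusted p = 0.037) on the log2 scale. It was -3.59 for Bmp3 (adjusted p = 0.0462), -1.84 for Ccn2 (adjusted p = 0.00148) and -1.45 for Inhba (adjusted p = 0.00749). At 24 h it was 2.08 for Hey1 (adjusted p = 0.0025). At 24 h Bmp3 and Ccn2 did not pass (adjusted p = 0.0507 and 0.153). The difference between the sera 12 h after exchange was itself 0.14 for Hey1, -0.14 for Bmp3 and -0.62 for Ccn2, against -2.09, 3.44 and 1.21 in steady culture. An adjusted p under 0.05 was found for 506 genes at 12 h and 144 at 24 h.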

How the results depend on the processing

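The 440 recomputed fold changes of the 8 genes moved by less than 1 SD between replicates, and none of the called ones changed sign. Leaving out 1 of 3 libraries can hardly move a group mean by 1 SD, so this limit tells nothing about those fits. With 1 library left out, the log2 fold change of Id1 in Rcm against Scm ran from -1.06 to -0.77. Of 286 recomputed values of called pathway genes, 225 stayed DEGs, 61 did not and 0 changed sign. Numbers of DEGs moved more. A fit of the 2 compared groups called 0 of the 8 genes and 0 pathway genes in R-Scm 24 h (edgeR, with 5 and 14 at an unadjusted p under 0.05), 2 of the 8 in S-Rcm 24 h, and 7 pathway genes in R-Scm 12 h and 4 in S-Rcm 12 h. DESeq2 called 5 of the 8 and 5 pathway genes in R-Scm 24 h. Without the filter 1 pathway gene was called in S-Rcm 12 h. With the replicate block 1 was called there as well, Id1 was not called in Rcm against Scm, and no other number moved by over 1.5 times. Correlations of same-numbered libraries were -0.196 to 0.346, and the numbers were not taken as pairs. These are the numbers of the titles, from which the column numbers differ in 3 groups.

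With 1 library left out, the number of the 8 genes called ran from 2 to 4 in Rcm against Scm, 3 to 4 in R-Scm 12 h, 1 to 5 in R-Scm 24 h, and was 0 in every such fit of S-Rcm 12 h and 24 h (edgeR, 2 to 4 at an unadjusted p under 0.05). For pathway genes it ran from 3 to 9, 10 to 15, 1 to 9, 0 to 1 and 0 to 2 in the same order. The low numbers for the 8 genes came without Rcm replicate 1 or 2 (and in R-Scm 24 h also without its replicate 2), and the 5 without R-Scm 24 h replicate 1. For pathway genes in Rcm against Scm the 3 came without Scm replicate 3 or Rcm replicate 1 and the 9 without Rcm replicate 3, and the 9 in R-Scm 24 h without its replicate 1. With 3 libraries per group, an exact permutation test of 1 gene cannot give a p below 0.1. Counts cover reads and not molecules.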
